A study of Arabidopsis thaliana with 4 samples.

Results

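The 10 genes described here encode the best known hydrogen peroxide and superoxide scavenging enzymes of the Arabidopsis shoot, namely 3 catalases, 3 ascorbate peroxidases, and 4 superoxide dismutases. They were chosen by gene identifier, and all 10 were found among the 23281 features of the gene table. Aboveground parts of wild-type *Arabidopsis thaliana* (Columbia ecotype, Col-0) were collected when rosette growth was complete, from plants kept at 23 °C by day and 18 °C at night with 16 h of light and 8 h of dark. Amplified cDNA was sequenced on a Nanopore PromethION instrument (ONT Pc) in 3 replicates, CK1, CK2, and CK3, and 1 further cDNA library was sequenced on a PacBio Sequel. Every sample was wild type and untreated, each replicate held a pool of plants, and there is 1 group only, so the comparisons below are between genes in the same libraries and between replicates.

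Superoxide is formed in the chloroplast when electrons of photosynthesis reach oxygen, and superoxide dismutases convert it to hydrogen peroxide. In the chloroplast and the cytosol, ascorbate peroxidases reduce this hydrogen peroxide with ascorbate. In the peroxisomes of leaves, where glycolate oxidase makes hydrogen peroxide during photorespiration, catalases split it into water and oxygen.

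The libraries held 8122432 reads in CK1, 7386184 in CK2, and 6835029 in CK3 on the listed features. CPM (counts per 1000000) were deposited with unlike divisors. That of CK1 equalled the reads of CK1, that of CK2 equalled the reads of CK1 and CK2 together, and that of CK3 equalled the reads of all 3 libraries, so the deposited columns summed to 1000000, 476263, and 305905. All levels below are therefore CPM rescaled to each column's own sum. After rescaling, the median log2 difference over the 14405 features that had 20 or more reads in each replicate was 0.11 between CK3 and CK1 and 0.06 between CK2 and CK1. The leaf markers RBCS1A, LHB1B2, and PSBR were the 3 highest features of the table, with a summed level of 59236 to 70898 CPM. The root markers IRT1, PHT1;1, and SCR summed to between 9.88 and 10.8 CPM, with IRT1 listed at 0 and SCR giving nearly all of the sum. The flower markers AG, AP3, and SEP3 summed to between 1.02 and 3.25 CPM. The seed marker CRA1 had 2 reads and the senescence marker SAG12 had 1 read over the 3 libraries.

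The 10 genes together took 5494 ± 617 CPM (SD, n = 3), or 0.549% of the reads. Their summed level was 5290 CPM in CK1, 6187 CPM in CK2, and 5006 CPM in CK3. The catalases gave most of it, with 3575 ± 584 CPM, ahead of the superoxide dismutases with 1301 ± 103 CPM and the ascorbate peroxidases with 618.7 ± 10.1 CPM (SD, n = 3 each). By the compartment in which the proteins are known to act, the 4 peroxisomal genes (CAT1, CAT2, CAT3, CSD3) held 65.8% ± 3.3 of the summed level, but 11.3% ± 2.3 was left to them without CAT3. The 4 chloroplast genes (FSD1, CSD2, TAPX, SAPX) held 21.5% ± 3.1, and the cytosolic genes APX1 and CSD1 held 12.6% ± 1.4 (SD, n = 3 each). In these pools of whole shoots, fewer cells of a type and less RNA per cell cannot be told apart.

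The order of mean levels was CAT3, FSD1, CAT2, APX1, CSD1, CSD2, TAPX, SAPX, CSD3, and CAT1. It ran over a range of 3007 to 44.9 CPM, that is, ranks 41 to 3210 of all features. Of the 9 pairs of neighbours in this order, 7 kept their order in every replicate. CAT2 stood above APX1 in CK1 and CK2 but below it in CK3, and CSD2 stood above TAPX in CK2 and CK3 but not in CK1, so these 2 pairs did not differ beyond their spread. For each of the other 7 pairs, an exact permutation test that flips the signs of the 3 paired differences (two-sided) gave p = 0.25, its smallest possible value, and 0.32 after Benjamini-Hochberg adjustment over the 9. One read stands for 1 cDNA of any length, so these levels carry no correction for length. Per kb of the median RefSeq transcript, CAT3 and FSD1 remained first and second, CSD1 became the third and CAT2 the fifth, and CAT1 was still last, with 20.2 CPM per kb.

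**Figure D1:**
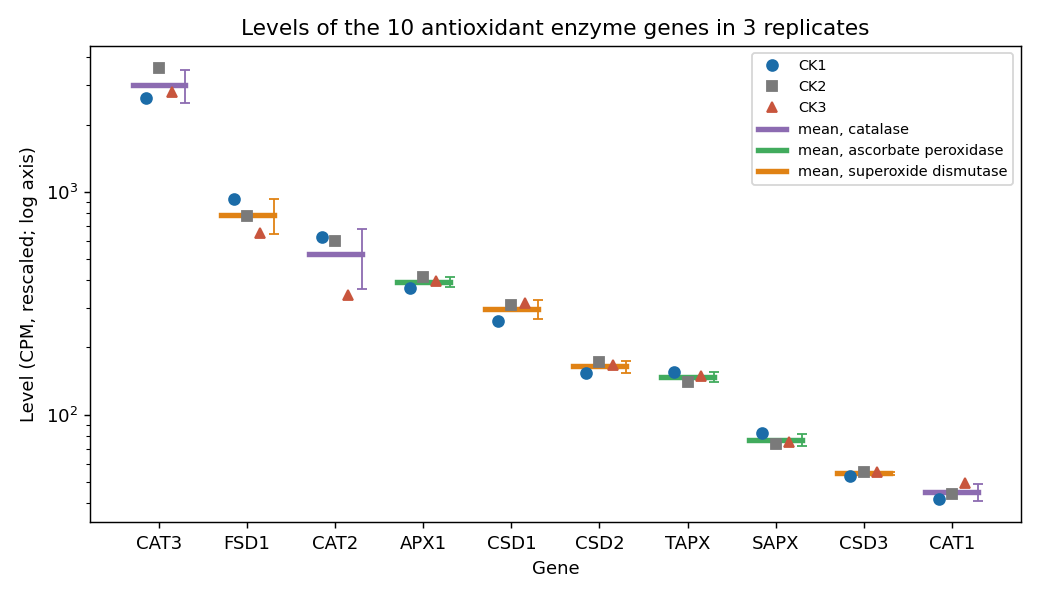
Level of each of the 10 genes in CK1 (circles), CK2 (squares), and CK3 (triangles), in rescaled CPM on a log axis, with the mean of the 3 replicates as a bar coloured by family and its SD as the whisker beside it. CAT2 is the gene whose CK3 value, 342 CPM, lies furthest below its other values, 624 and 602 CPM.

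Catalases are haem enzymes of the peroxisome, and the Arabidopsis genes differ in when and where they are used. CAT2 is the main catalase of photorespiration in leaves and is known to peak in the early morning. CAT3 is known to be under the clock with a peak in the evening and to be high in vascular and older tissue, and CAT1 is known mainly from pollen and seeds. In the first listed RefSeq transcript of each gene, the coding sequences (1479 bases each, while the longest annotated for CAT3 has 1656 bases) share 80.3% of their bases between CAT1 and CAT2, 76.9% between CAT1 and CAT3, and 76.5% between CAT2 and CAT3.

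CAT3 (AT1G20620) had 2621 CPM in CK1, 3601 CPM in CK2, and 2800 CPM in CK3, with 67027 reads in all. It was the highest of the 10 genes in every replicate, and its CK2 value stood above the other replicates. CAT2 (AT4G35090) had 624 CPM in CK1, 602 CPM in CK2, and 342 CPM in CK3, with 5066, 4447, and 2341 reads. CK1 and CK2 lay close together, and CK3 lay 0.84 below their mean on the log2 scale. CAT1 (AT1G20630) was the lowest of the 10 genes, with 41.7 CPM in CK1, 43.9 CPM in CK2, and 49.2 CPM in CK3. CAT1 starts 95 bases downstream of the end of CAT3 on the same strand of chromosome 1, so reads that run past the end of CAT3 could be counted for either gene.

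CAT2 was lower than CAT3 in all 3 replicates, by 2485 ± 501 CPM (mean 523 CPM for CAT2 and 3007 CPM for CAT3, SD, n = 3, p = 0.25 by the exact permutation test of signs, its smallest possible value). The ratio of CAT3 to CAT2 was 4.20 in CK1, 5.98 in CK2, and 8.17 in CK3. As a share of the catalase reads, CAT2 gave 19.0% in CK1 (95% Wilson interval 18.5 to 19.5%), 14.2% in CK2 (13.8 to 14.6%), and 10.7% in CK3 (10.3 to 11.1%). The intervals do not overlap, but they cover counting error only and leave out variation between the pools of plants. They are also too narrow for counting error, since PCR copies of 1 molecule are counted as separate reads. The mean share of CAT2 was 14.6% ± 4.1, against 84.1% ± 4.0 for CAT3 and 1.28% ± 0.25 for CAT1 (SD, n = 3 each).

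The bases upstream of CAT2 and CAT3 are shown because these genes are known to peak at opposite times of day and had different patterns over the 3 replicates. Each is the 250 bases before the annotated gene start (RefSeq TAIR10.1, read 5′ to 3′ on the gene's strand), at chr4:16703505-16703754 on the minus strand for CAT2 and chr1:7142722-7142971 on the plus strand for CAT3. Capitals mark matches on either strand to GTAC, the core of the copper response element, and to AATATCT, the last letters of the evening element AAAATATCT, which can overlap.
CAT2: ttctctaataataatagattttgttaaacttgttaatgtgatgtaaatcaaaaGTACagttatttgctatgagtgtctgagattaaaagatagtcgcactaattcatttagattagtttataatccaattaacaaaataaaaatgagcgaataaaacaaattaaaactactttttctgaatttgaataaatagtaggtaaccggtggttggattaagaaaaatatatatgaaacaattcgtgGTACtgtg
CAT3: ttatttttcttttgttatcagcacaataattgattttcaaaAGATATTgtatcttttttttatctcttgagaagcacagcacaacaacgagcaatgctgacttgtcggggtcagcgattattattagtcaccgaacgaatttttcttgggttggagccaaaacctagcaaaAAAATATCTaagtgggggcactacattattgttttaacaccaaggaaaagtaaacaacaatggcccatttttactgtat
CAT3 held AATATCT at 209 and 77 bases before the gene start, the second of them within a full evening element that begins at 79 bases. Of 27443 windows of the same length before protein-coding genes, 2745 held AATATCT and 648, or 2.36%, held AAAATATCT. CAT2 held neither, and it held GTAC at 197 and 8 bases, letters that 34.3% of all windows hold. None of the 10 windows held the G-box CACGTG, which 6.49% of all windows held. A match is a description of the letters and not of a factor's binding.

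Ascorbate peroxidases use ascorbate as the electron donor. APX1 encodes the cytosolic enzyme, SAPX the enzyme of the chloroplast stroma, and TAPX the enzyme bound to the thylakoid membrane next to photosystem I. APX1 (AT1G07890) had 369 CPM in CK1, 412 CPM in CK2, and 399 CPM in CK3. TAPX (AT1G77490) had 155 CPM in CK1, 140.1 CPM in CK2, and 149 CPM in CK3. SAPX (AT4G08390) had 82.7 CPM in CK1, 73.5 CPM in CK2, and 75.3 CPM in CK3. The order APX1, TAPX, SAPX was the same in every replicate, and none of the 3 differed by more than 1.13-fold between its highest and lowest replicate.

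APX1 gave 60.9%, 65.9%, and 64.0% of the reads of the 3 genes in CK1, CK2, and CK3, a mean of 63.6% ± 2.5 (SD, n = 3). TAPX was 1.92 ± 0.05 times as high as SAPX (SD, n = 3), the steadiest ratio of the 3 within this family, although their coding sequences share 77.3% of their aligned bases. The spread of both genes was close to counting error. Their SDs were 1.66 times the SD that the read counts alone would give for TAPX and 1.51 times for SAPX, against 2.99 times for APX1.

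**Figure D2:**
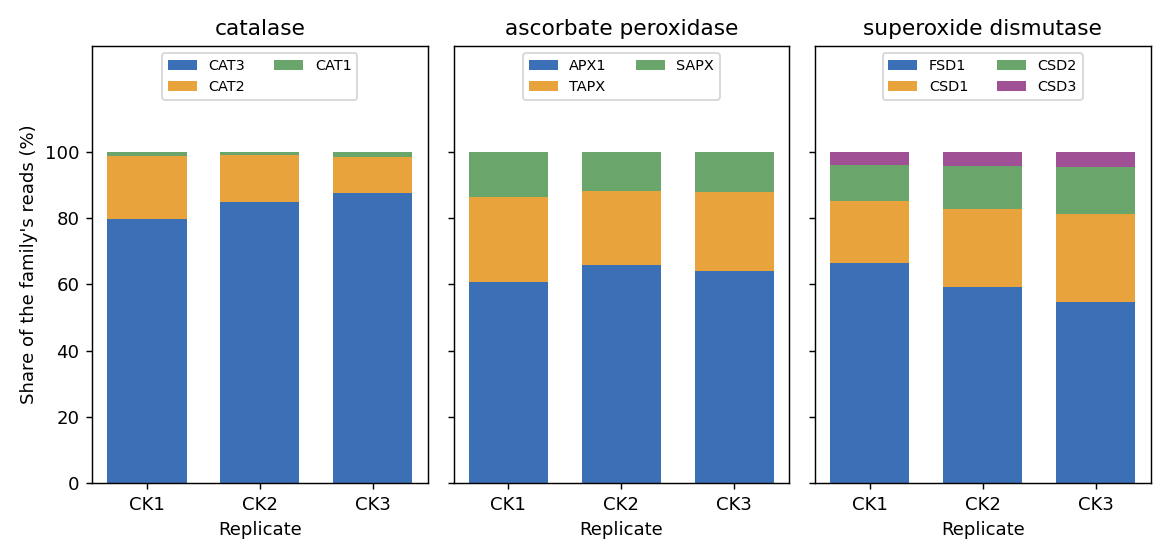
Share of each gene in the reads of its family, in percent, stacked for CK1, CK2, and CK3. The shares of CAT2 (19.0, 14.2, and 10.7%) and FSD1 (66.4, 59.2, and 54.7%) are lowest in CK3, and that of APX1 stays between 60.9 and 65.9%.

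Superoxide dismutases differ by their metal. FSD1 is the iron enzyme, found mainly in the chloroplast, CSD1 and CSD2 are the copper/zinc enzymes of the cytosol and the chloroplast, and CSD3 is a copper/zinc enzyme annotated to the peroxisome. Copper supply is known to set which of them is made. When copper is scarce, the transcription factor SPL7 turns on FSD1 and the microRNA miR398, which directs the cleavage of CSD1, CSD2, and CCS transcripts, the last encoding the copper chaperone of these enzymes.

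FSD1 (AT4G25100) was the highest superoxide dismutase of the 4 in every replicate, with 927 CPM in CK1, 777 CPM in CK2, and 652 CPM in CK3. Its SD between replicates was 138 CPM. CSD1 (AT1G08830) had 263 CPM in CK1, 309 CPM in CK2, and 317 CPM in CK3. CSD2 (AT2G28190) had 153 CPM in CK1, 172 CPM in CK2, and 168 CPM in CK3. CSD1 and CSD2 were lowest in CK1, the replicate in which FSD1 was highest, but so were CAT3, APX1, CSD3, and CAT1. CSD3 (AT5G18100) had 53.2 CPM in CK1, 55.0 CPM in CK2, and 55.0 CPM in CK3. Its SD of 1.04 CPM was below the counting SD of 2.71 CPM, the smallest spread of the 10 genes.

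FSD1 exceeded CSD2, its copper/zinc counterpart in the chloroplast, in all 3 replicates, by 621 ± 145 CPM (mean 786 CPM for FSD1 and 164 CPM for CSD2, SD, n = 3, p = 0.25 by the exact permutation test of signs). The ratio of FSD1 to CSD2 was 6.06 in CK1, 4.51 in CK2, and 3.89 in CK3. FSD1 gave 66.4% of the reads of the 4 genes in CK1 (95% Wilson interval 65.5 to 67.3%), 59.2% in CK2 (58.2 to 60.1%), and 54.7% in CK3 (53.7 to 55.8%), a mean of 60.1% ± 5.9 (SD, n = 3). The ratio of CSD1 to CSD2 moved far less, between 1.72 and 1.89. Over the 3 families, all 12 pairs of genes within a family kept 1 order in every replicate, each with p = 0.25 by the same exact test, also after Benjamini-Hochberg adjustment over the 12.

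The miR398 sequences are shown because this microRNA is known to act on copper/zinc members. RefSeq TAIR10.1 annotates 3 genes for miR398, and their mature 3p strands share 1 seed (bases 2 to 8, in capitals). That of miR398a lies at chr2:1041012-1041032, that of miR398b at chr5:4691107-4691127, and that of miR398c at chr5:4694778-4694798, all on the plus strand.
miR398a-3p: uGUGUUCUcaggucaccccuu
miR398b-3p: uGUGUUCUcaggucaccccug
miR398c-3p: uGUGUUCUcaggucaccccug
The 21-base stretch that pairs best with miR398a-3p without gaps was searched for in each transcript of the members and of CCS. The best stretches of CSD1, CSD2, and CCS are given with Watson-Crick paired bases in capitals. That of CSD1 lies before the start codon across a splice junction (chr1:2827177-2827685, plus strand), that of CSD2 in the coding sequence (chr2:12015572-12015592, plus strand), and that of CCS in the coding sequence (chr1:4267521-4267541, minus strand).
CSD1: AAGGGGTttCCTGAGAtCACA
CSD2: tgcGGGTGACCTGgGAAacat
CCS: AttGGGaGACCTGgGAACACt
CSD1 paired at 18 of 21 bases, a count reached by 2 of 27558 protein-coding genes. In the other annotated CSD1 transcript, which is spliced differently there, the best count was 15. CCS paired at 16 bases (0.218% of genes reach this). CSD2 paired at 13 bases with 2 further G:U pairs, a count that 49.9% of genes reach somewhere, although CSD2 is annotated as cleaved by this microRNA. FSD1 paired at 15 bases, as 2.00% of genes do. The shares of genes rest on the longest transcript of each gene and the higher count of miR398a-3p and miR398b-3p. The counts of the members and CCS rest on miR398a-3p and the best transcript, so the measures are not quite alike. miR398 itself was not measured here, and a pairing count is no measure of cleavage.

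Some members share positions with other genes, and the sources used here do not say whether strand was used in counting. CAT2 overlaps AT4G35080 on the other strand by 95 bases (23.0 CPM). CSD1 overlaps AT1G08840 by 211 bases (2.63 CPM). CSD3 overlaps AT5G18110 by 142 bases (35.8 CPM, against 54.4 CPM for CSD3) and a noncoding RNA that has no value in the table. How far such reads enter the values of CSD3 or, from CAT3, those of CAT1 was not tested.

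The spread between replicates set CAT2 apart from the other members. Of the 10 genes, 1 had a highest replicate at least 1.5 times its lowest, CAT2 with 1.82, against 24% of the 14405 features that had 20 or more reads in each replicate. The members were far deeper than most of these, with at least 300 reads in every replicate. Among the 3065 features at that depth, 14.7% passed 1.5-fold, a comparison added after the values were seen. The other ratios were 1.42 for FSD1, 1.37 for CAT3, 1.21 for CSD1, 1.18 for CAT1, and 1.03 to 1.13 for the remaining 5 genes. The median over the 10 genes was 1.15, against 1.22 over the 3065 features. With reads scaled by median-of-ratios size factors in place of column sums, FSD1 also passed, with 1.53.

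CAT2 was the member for which CK3 stood apart, at 342 CPM in CK3 against 624 CPM in CK1 and 602 CPM in CK2. By the same 1.5-fold rule, 2.05% of the 14405 features were lower in CK3 than in both other replicates and 2.85% were higher, so 1 of 10 low members is a description of CAT2 and not a result on the family. FSD1 was also lowest in CK3, 0.38 below the mean of CK1 and CK2 on the log2 scale, but its CK1 and CK2 values differed as well. The median member lay 0.02 above that mean on the log2 scale, against 0.07 for the 3065 features. In CK3, 3 of the 10 members (CSD1, CSD3, and CAT1) were highest, against 1360 of the 3065 features. Of these 3 members, only CAT1 was so with median-of-ratios size factors. Of 10 clock genes, 9 had at least 20 reads in every replicate, all but ELF4 (13, 16, and 284 reads in CK1, CK2, and CK3). Of these 9, 2 were lower and 4 higher in CK3 than in both other replicates by the 1.5-fold rule (2.05% and 2.85% of all features), and 7 passed 1.5-fold between any replicates (24% of all features), those with the largest ratios being TOC1 (26.9 CPM in CK3, against 4.06 and 6.36 CPM in CK1 and CK2), LUX (75.9 CPM in CK3, against 25.7 and 16.1 CPM), PRR5 (10.4 CPM in CK3, against 3.32 and 6.09 CPM), LHY (4.39 CPM in CK3, against 9.48 and 13.3 CPM), and ELF3 (14.3 CPM in CK3, against 5.91 and 6.09 CPM). The hour of harvest is not given in the sources used here, and the part of the clock in the CAT2 values was not tested.

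**Figure D3:**
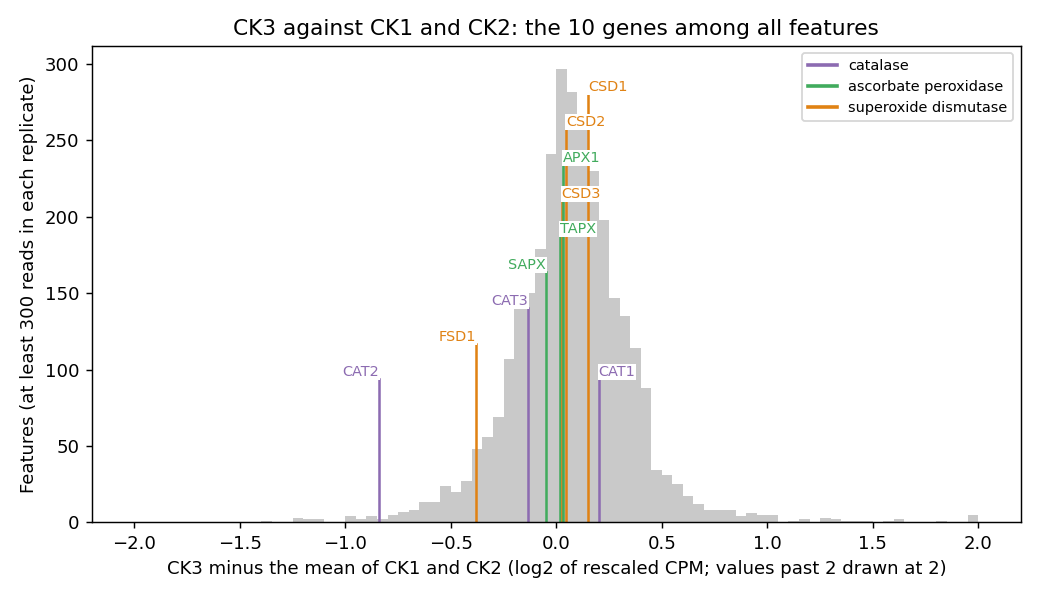
CK3 minus the mean of CK1 and CK2 on the log2 scale for the 3065 features that had 300 or more reads in each replicate (grey bars, number of features), with the 10 genes as lines coloured by family. CAT2 lies at -0.84 and FSD1 at -0.38, and the other 8 genes lie between -0.13 (CAT3) and 0.20 (CAT1).

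The wider antioxidant list held 35 further genes of the ascorbate and glutathione cycles, peroxiredoxins, and catalase partners. Of these, 33 were listed in the table, 31 had at least 20 reads in every replicate, and 4 passed 1.5-fold (24% of the 14405 features did), with a median ratio of 1.22 against 1.29 over all 14405 features. The highest were GOX1, a glycolate oxidase that makes peroxisomal hydrogen peroxide (1079 ± 76 CPM), 2CPA, a chloroplast peroxiredoxin (751 ± 118 CPM), and GPX1, a chloroplast glutathione peroxidase (548 ± 56 CPM, SD, n = 3 each). GOX1 stayed level where CAT2 did not, with 1009 CPM in CK3 against 1067 CPM in CK1 and 1160 CPM in CK2.

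Of the 4 genes past 1.5-fold, VTC2, VTC4, and DHAR1 were lowest in CK3. Over the 31 genes, 14 were lowest in CK3 and 7 highest. Of the 14405 features, 24.2% were lowest in CK3 and 6492 were highest. Other ascorbate genes of the list were mixed. Among those with at least 20 reads in every replicate, VTC1, DHAR2, MDAR1, MDAR2, MDAR4, and APX3 were also lowest in CK3, but none of them passed 1.5-fold. VTC1 had the largest ratio of these, 1.42, with 247 CPM in CK3 against 302 CPM in CK1 and 350 CPM in CK2. GLDH, MDAR6, and VTC5 were highest in CK3 (15.8, 50.9, and 22.2 CPM), and DHAR3 had a ratio of 1.05. These examples were picked with the levels already known. VTC2, the GDP-L-galactose phosphorylase that controls the rate of ascorbate synthesis, had 143 CPM in CK3 against 275 CPM in CK1 and 278 CPM in CK2. VTC4, a later enzyme of the same route, had 90.7 CPM in CK3 against 151 and 144 CPM. Both also met the rule for CK3 standing apart, as did no other of the 31 genes. By this rule, 2.05% of the 14405 features were lower in CK3 and 2.85% were higher. Whether 2 of 31 exceeds the share of lower features was not tested. DHAR1, a dehydroascorbate reductase, had 2720 reads in CK3 against 4001 reads in CK1 and 5073 reads in CK2, a ratio of 1.73 between its highest and lowest CPM, and its CK1 and CK2 values differed as well. FSD3, an iron superoxide dismutase of the chloroplast nucleoid, was lowest in CK2, with 18.5 CPM against 34.2 CPM in CK1 and 29.99 CPM in CK3.

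Relatives of the members outside the 10 genes, named here for their family after their values were seen, were mostly lower. The mitochondrial manganese superoxide dismutase MSD1 had 286 ± 13 CPM, close to CSD1, while the iron enzymes FSD2 and FSD3 had 27.2 ± 4.6 and 27.6 ± 8.1 CPM (SD, n = 3 each). Of the ascorbate peroxidase relatives, the thylakoid lumen protein TL29 had 411 ± 43 CPM, the peroxisomal APX3 had 118 ± 9 CPM, APX6 had 28.0 ± 0.8 CPM, and APX5 had 1.67 ± 0.78 CPM (SD, n = 3 each). NCA1, a chaperone that catalases need for activity, had 87.8 ± 5.6 CPM (SD, n = 3) and a ratio of 1.13 between its highest and lowest replicate.

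**Figure D4:**
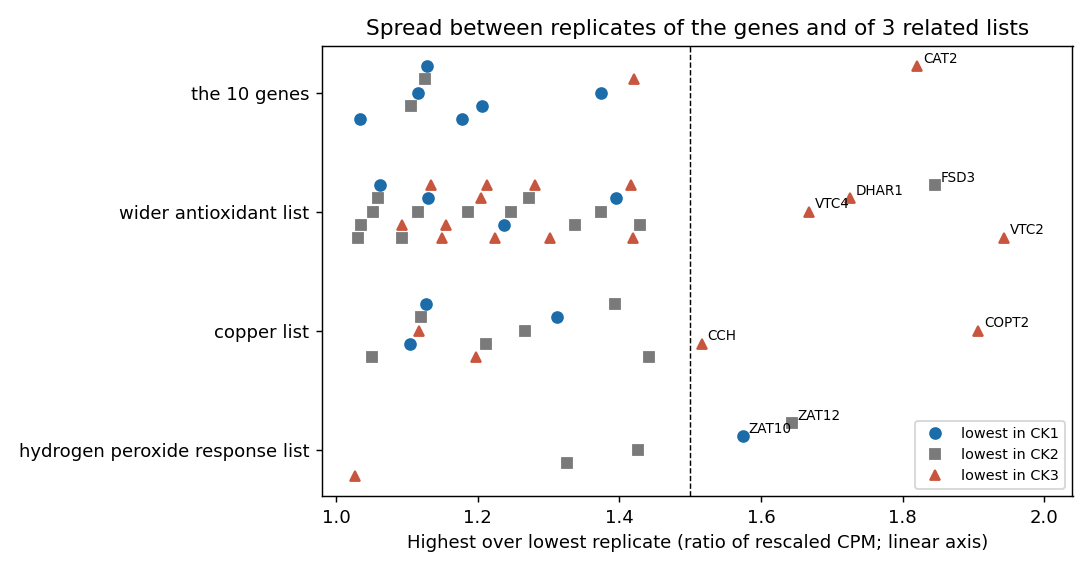
Ratio of the highest to the lowest replicate for the 10 genes and for the genes of 3 related lists with at least 20 reads in every replicate, with 1 symbol for each gene showing in which replicate it was lowest. The dashed line marks 1.5-fold, and the genes past it are named, among them CAT2 (1.82), VTC2 (1.94), and COPT2 (1.91), all lowest in CK3.

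Copper genes were examined because copper sets the balance of FSD1 and the copper/zinc enzymes. Of 15 genes, all were listed, 13 had at least 20 reads in every replicate, and 2 passed 1.5-fold, no larger a share than the 24% of all 14405 features. The highest were PETE2, the plastocyanin that carries electrons to photosystem I (6269 ± 362 CPM), CCH, a copper chaperone (534 ± 114 CPM), and ATX1, another copper chaperone (353 ± 21 CPM, SD, n = 3 each). COPT2, a copper uptake transporter known to be turned on by SPL7, had 18.1 CPM in CK3 against 34.6 CPM in CK1 and 32.5 CPM in CK2. CCH had 435 CPM in CK3 against 659 CPM in CK1 and 509 CPM in CK2. Over the 13 copper genes, 4 were lowest in CK3 and 5 highest. Of the 14405 features, 3481 were lowest in CK3 and 6492 highest, so these counts are no result on the copper genes. SPL7 itself differed by 1.10-fold and was highest in CK3, and CCS, both named after their values were seen, was also highest there, with 35.6 CPM in CK3 against 27.1 CPM in CK1 and 28.7 CPM in CK2. Copper was not varied or measured in these plants, and its part in these values was not tested.

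Genes known to respond to excess hydrogen peroxide had means of at most 139.9 CPM. Of 10 such genes, 9 were listed, 5 had at least 20 reads in every replicate, and 2 passed 1.5-fold, against 24% of the 14405 features. FER1, a ferritin, was the highest, with 139.9 ± 1.8 CPM (SD, n = 3). ZAT10, a zinc finger regulator of stress responses, had 104 CPM in CK1, 164 CPM in CK2, and 126 CPM in CK3, and GSTU5, a glutathione transferase, had 49.4 CPM in CK1, 48.2 CPM in CK2, and 63.9 CPM in CK3. GSTU5 and BAP1 (13.9, 10.2, and 14.5 CPM), BAP1 being named after its values were seen, were highest in CK3, as were 6492 of the 14405 features. ZAT12, a related regulator, had 46.3 CPM in CK1, 28.2 CPM in CK2, and 42.4 CPM in CK3. ZAT10 was highest in CK2 and ZAT12 in CK1. The heat shock factor HSFA2 had 1, 2, and 5 reads, the kinase OXI1 had 7, 4, and 9 reads, and APX2, the ascorbate peroxidase of stressed leaves, was not listed.

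The patterns over the 3 replicates were compared with those of the 7605 features that had 100 or more reads in each, by the Euclidean distance between log2 deviations from the gene's own mean. Nearest to CAT2 were AT2G40435 (distance 0.01), CYP71B2 (0.03), and COPT2 (0.05), and 11 features lay within 0.1. Nearest to CAT3 were OPR1 (0.01), AT1G29350 (0.01), and AT1G23710 (0.02), with 141 features within 0.1. Nearest to FSD1 were PAP10 (0.02), GR1 (0.03), and AT5G02280 (0.03), with 38 features within 0.1. GR1, a glutathione reductase, had 56.4 CPM in CK1, 46.0 CPM in CK2, and 39.8 CPM in CK3. Only 3 libraries stand behind each distance, and with 7605 features some near matches are a matter of number.

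The PacBio list gives isoform identifiers by protein family and no levels. The catalase family held 39 isoforms at 2 loci, 26 at one and 13 at the other, beside 9 reference transcripts of CAT1, CAT2, and CAT3 (1, 3, and 5 each). The list does not pair loci with genes, so the catalase genes behind these 2 loci cannot be named. Of the 39 isoforms, 27 also carried the catalase-related immune-responsive domain that follows the catalase domain in the protein. The copper/zinc superoxide dismutase family held 7 isoforms at 3 loci, with 2 to 3 each, beside reference transcripts of 4 genes, CSD1, CSD2, and CSD3 among them. The iron/manganese family held 1 isoform with the alpha-hairpin domain and 2 with the C-terminal domain, beside reference transcripts of 5 genes including FSD1 (5 transcripts). The peroxidase family held 40 isoforms at 11 loci, but its reference transcripts came from 82 genes, of which 3 were APX1, SAPX, and TAPX, so its isoforms cannot be ascribed to ascorbate peroxidases. Catalase thus had the most isoforms for each locus of the families that hold only such enzymes, but there was 1 library and the reads behind an isoform are not in the list.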

How the data were processed

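Shoots of wild-type plants gave 3 ONT Pc replicates and 1 PacBio library. For ONT Pc, base-calling by the authors used Guppy, consensus building minimap2 and Racon, mapping GMAP, and counting Salmon, and CPM per gene were deposited. The labels name TAIR10 and minimap2. For PacBio, the deposited file holds family and isoform names only. Every CPM column was divided by the value of 1 read, and 100% of the values above 0 came out whole to within 0.01 reads. With 1 group, no count test between conditions could be run. CPM were rescaled to each column's own sum.

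Spread was the ratio of the highest to the lowest replicate among features with at least 20 reads in each. Pairs of genes were compared with an exact permutation test (two-sided) over the signs of the 3 paired differences. Of each list, the 3 highest genes and those past 1.5-fold (up to 5, with the largest ratios) were named, besides exceptions marked in the text. The nearest patterns were the 3 features at the smallest distance. The members and lists were chosen with earlier results of these data known. Transcript lengths, positions, and sequences came from RefSeq TAIR10.1. The recovery of reads and the 1.5-fold rule were tried on simulated counts that varied by counting error only, and the other procedures were not simulated. Tools were Biopython 1.88, scipy 1.17.1, pandas 2.3.3, numpy 2.4.6, and Python 3.11.15. Each replicate was a pool of plants, per the study's methods. Intervals cover counting error only.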

Additional observations from a re-analysis of the deposited data

How the results depend on the processing

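Of 77 alternatives to 13 results, 53 were counted as unchanged and 24 were not. Shares and the summed level had to stay within the SD of the main value, and counts within 1.5 times the main count. The differences CAT2 minus CAT3 and FSD1 minus CSD2 had only to keep their sign, and both did throughout. Their sizes did move, to -1393 and 404 CPM with CPM as deposited, against -2485 and 621 CPM in the main setting. Per kb of transcript, the APX1 share was 71.7% and the FSD1 share was 52.3%. With CPM as deposited, the summed level was 3256 CPM, 10 members, 31 genes of the wider antioxidant list, 13 copper genes, and 5 hydrogen peroxide response genes passed 1.5-fold, and 8 members had CK3 apart, which the running divisors produce by construction. With median-of-ratios size factors, 2 members passed 1.5-fold, CAT2 and FSD1. At 2-fold, 0 members, 0 genes of each of the 3 lists, and 0 members with CK3 apart remained, against 6.36% of the 14405 features at 2-fold. With no minimum of reads, 5 hydrogen peroxide response genes passed. With at least 300 reads in every replicate, an alternative chosen after seeing the data, 1 copper gene and 1 hydrogen peroxide response gene passed. Leaving out 1 replicate gave 0 to 1 members (0 without CK3), 1 to 4 genes of the wider antioxidant list (2 without CK2 and 1 without CK3), 0 to 2 copper genes (1 without CK1 and 0 without CK3), and 0 to 2 hydrogen peroxide response genes (1 without CK1 and 0 without CK2). The mean CAT2 share ranged from 12.5% without CK1 to 16.6% without CK3. Genes were paired by library in the permutation tests, but no paired analysis between conditions was possible because the 3 replicates form 1 group. The PacBio library holds no level, so it could not be paired with the replicates. The paper states that its cDNA came from the RNA samples also used for Illumina sequencing. With 3 replicates no p can fall below 0.25, and the reads are PCR copies, so counting intervals are too narrow.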
